A study of Mus musculus with 6 samples.

Results

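Guanylate-binding proteins (GBPs) are large GTPases of the dynamin superfamily that cells make in response to interferon gamma. The receptor of this cytokine signals through the kinases JAK1 and JAK2, and IRF1, a transcription factor induced by this signal, drives Gbp genes. The proteins assemble on membranes of microbes and on vacuoles that hold them, and they promote inflammasome activation. In the mouse the genes lie in a cluster on chromosome 3 and another on chromosome 5, and the chromosome 5 copies are very similar in sequence.

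The 10 genes described here are Gbp2, Gbp3, Gbp4, Gbp5, Gbp6, Gbp7, Gbp8, Gbp9, Gbp10 and Gbp11, a list taken by symbol. All 10 were found among the 14669 rows of the deposited table, and all 10 were above the filter on low values (a mean of at least 1 FPKM, which is the number of fragments scaled to gene length and to library depth). The mice were wild-type C57BL/6J males aged 8 weeks, and each library was of whole liver. The scramble group (libraries Sc3, Sc4 and Sc5) had received 25 µg of pLKO plasmid with a scrambled hairpin, and the shBicd2 group (sh1, sh3 and sh6) the same amount of a pLKO plasmid with a hairpin against Bicd2, a cargo adaptor of the dynein motor. The plasmid was given in 2.5 ml of saline by hydrodynamic injection, a fast high-volume injection that carries DNA into liver cells. Every mouse in both groups received an intravenous dose of 15 mg/kg concanavalin A (ConA) on day 3, with liver collection 6 h after it. ConA is a lectin that activates T cells and causes an acute hepatitis in which interferon gamma is released. No group without ConA was analysed here, so the values compare the plasmids during hepatitis and not the induction of Gbp genes. The plasmid reaches only part of the liver cells, and the RNA came from all of them.

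Read totals, worked out from the smallest steps of the FPKM values, were 16.03 M to 18.93 M reads and overlapped between groups. Bicd2 itself measured 4.14, 3.43 and 3.13 FPKM with the scramble plasmid, against 3.62 in sh1, 2.57 in sh3 and 2.97 in sh6, and the groups overlapped (exact two-sided permutation p = 0.4). The libraries labelled shBicd2 are called so below, although a lower level of the target was not detectable. Library sh1 stood apart: it lay at 55.0 on the first principal component, which held 58.8% of the variance, against -14.5 and 10.6 for sh3 and sh6 and -22.2 to -12.1 for scramble. Fold changes of the members are therefore given with and without sh1, and those of other genes only in part. Whether the libraries are from separate mice is not stated in the labels, so p-values measure only the spread between these samples. With 3 libraries per group the smallest exact permutation p is 0.1.

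The chromosome 3 members lie on the plus strand of GRCm38 in the order Gbp5 (142493978 to 142522344), Gbp7 (142530342 to 142550149), Gbp3 (142560026 to 142573209) and Gbp2 (142620602 to 142638008). The chromosome 5 members lie on the minus strand, at 105014150 to 105139540 (Gbp8), 105077630 to 105139539 (Gbp9), 105115767 to 105139586 (Gbp4), 105215699 to 105239533 (Gbp10), 105270702 to 105293698 (Gbp6) and 105323042 to 105346472 (Gbp11). All are annotated as protein coding in GENCODE M21 other than Gbp11, a polymorphic pseudogene. Promoter sequences were found for 4 of the 10 members in the RefSeq table (GRCm38.p6), and they are shown because interferon gamma acts on Gbp genes through such elements. Capitals mark matches to the core of the interferon-stimulated response element (GAAA, any 2 bases, then GAAA, on either strand) and to the gamma-activated site (TTCNNNGAA, which reads alike on both strands). The windows start 250 bases before the RefSeq start site and end before that site or the first annotated exon base, except that of Gbp2. Its match lies 49 bases before the RefSeq start, in a stretch that GENCODE M21 counts to the first exon, so 12 exon bases were kept. The Gbp5 window holds no annotated exon base but lies inside the GENCODE M21 gene, which starts further upstream, at 142493978.
Gbp2, chr3:142620413-142620613, plus strand: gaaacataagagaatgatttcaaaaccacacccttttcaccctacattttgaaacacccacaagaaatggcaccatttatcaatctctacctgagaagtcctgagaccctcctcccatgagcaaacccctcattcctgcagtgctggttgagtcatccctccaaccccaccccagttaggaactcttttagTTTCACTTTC
Gbp5, chr3:142496684-142496899, plus strand: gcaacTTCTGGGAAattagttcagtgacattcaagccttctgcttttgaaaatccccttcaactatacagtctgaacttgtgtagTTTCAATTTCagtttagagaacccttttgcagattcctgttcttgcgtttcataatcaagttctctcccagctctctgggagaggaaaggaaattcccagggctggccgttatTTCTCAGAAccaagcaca
Gbp3, chr3:142559794-142560025, plus strand: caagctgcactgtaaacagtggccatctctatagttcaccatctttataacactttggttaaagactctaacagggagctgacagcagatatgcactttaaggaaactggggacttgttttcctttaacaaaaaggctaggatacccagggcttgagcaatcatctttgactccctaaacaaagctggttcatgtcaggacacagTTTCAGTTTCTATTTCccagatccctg
Gbp7, chr3:142530086-142530335, plus strand: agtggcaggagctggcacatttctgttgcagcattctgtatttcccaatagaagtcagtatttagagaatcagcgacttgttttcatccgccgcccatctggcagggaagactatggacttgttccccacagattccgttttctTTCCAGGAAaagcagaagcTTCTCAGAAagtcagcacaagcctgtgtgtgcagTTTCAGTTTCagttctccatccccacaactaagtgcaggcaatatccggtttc
All 4 promoters held the response element core, and Gbp3 held it at 2 overlapping places. Gbp5 and Gbp7 each held 2 gamma-activated sites as well, while Gbp2 and Gbp3 held none in these windows. Over the 32851 promoters of 300 bases in the RefSeq table, 3.44% held the response element core and 8.3% the gamma-activated site. These are matches of letters and not measured binding sites.

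The members differ in how well reads can be told apart. Coding sequences of the 6 chromosome 5 genes were 90.01% to 98.36% identical in pairwise alignments, against 64.33% to 78.32% among the 4 chromosome 3 genes. Gbp6 and Gbp10 were the closest pair, with 30 mismatches in 1833 aligned bases and an identical run of 421 bases. The following 120 bases of coding sequence, where Gbp6 and Gbp10 differ most, are shown because reads from such places are what separates the copies. They lie on the minus strand of chromosome 5 in GRCm38. Capitals mark bases that differ from Gbp10, and in the Gbp10 line the bases that differ from Gbp6.
Gbp10, chr5:105218392-105218511: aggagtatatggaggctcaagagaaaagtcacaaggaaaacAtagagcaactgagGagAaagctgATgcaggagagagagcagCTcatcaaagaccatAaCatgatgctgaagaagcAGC
Gbp6, chr5:105274192-105274311: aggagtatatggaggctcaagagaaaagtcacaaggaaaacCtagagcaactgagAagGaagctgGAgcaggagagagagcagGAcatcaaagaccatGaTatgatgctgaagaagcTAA
Gbp11, chr5:105324912-105325031: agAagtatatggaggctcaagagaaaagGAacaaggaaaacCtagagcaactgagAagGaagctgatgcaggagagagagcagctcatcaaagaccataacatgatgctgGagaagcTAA
Gbp8, chr5:105016032-105016151: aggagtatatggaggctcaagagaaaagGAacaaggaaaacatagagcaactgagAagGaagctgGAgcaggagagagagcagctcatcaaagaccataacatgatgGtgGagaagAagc
In this stretch Gbp6 differed from Gbp10 at 12 bases, Gbp11 at 10 and Gbp8 at 9.

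Over the longest annotated transcript of each gene, 63.2% of all windows of 150 bases in Gbp10 and 43.4% of those in Gbp6 occurred unchanged in another gene. Part of this is Gm43302, a gene model whose exons cover 46.3% of the exonic bases of Gbp10 and 29.0% of those of Gbp6, and which was not analysed here. In Gbp7 the share was 8.93%, and Gm43802, which lies within Gbp7, covers 11.3% of its exonic bases. The other 7 members had 0.0% to 0.0786% of such windows. Reads of 150 bases would therefore leave Gbp2, Gbp3, Gbp4, Gbp5, Gbp8, Gbp9 and Gbp11 largely distinct, and Gbp6 and Gbp10 not. With windows of 50 bases the shares were 82.5% for Gbp10, 59.7% for Gbp6, 19.2% for Gbp11 and 18.2% for Gbp8. Neither the read length nor the rule for reads matching more than 1 gene is known from the sources used, so the split between Gbp6 and Gbp10 is uncertain and their levels may miss shared reads.

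**Figure D1:**
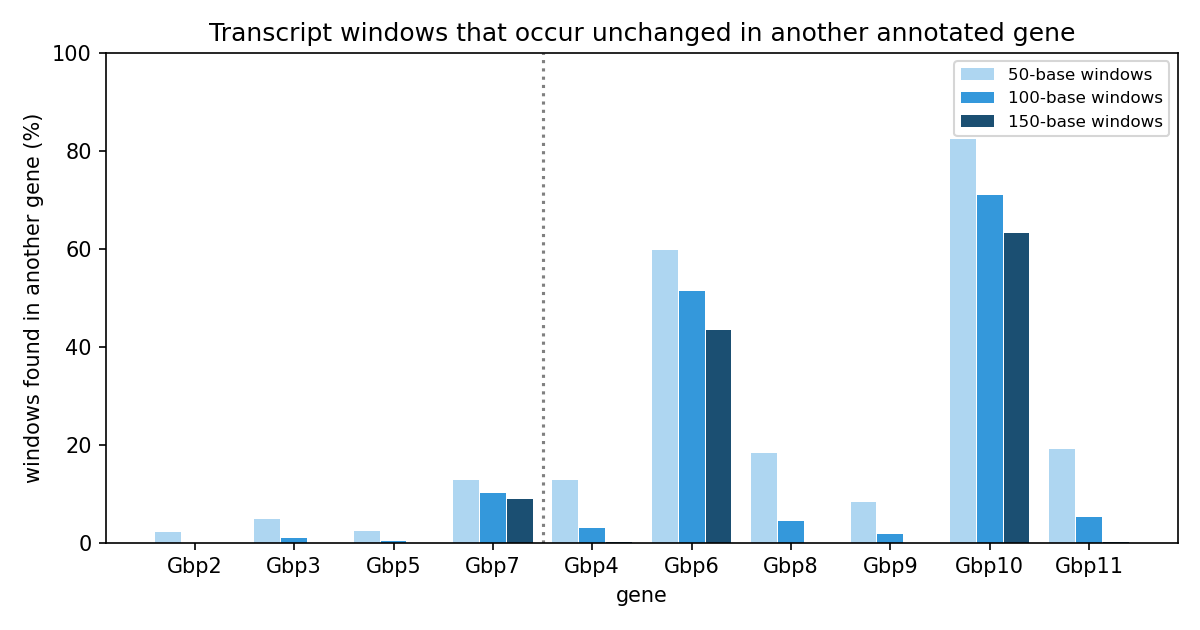
Share of windows of each gene's longest transcript, in percent, that occur unchanged in a transcript of another GENCODE M21 gene, for windows of 50, 100 and 150 bases. At 150 bases Gbp10 (63.2%), Gbp6 (43.4%) and Gbp7 (8.93%) stand above the other 7 genes.

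Most Gbp genes lay lower in shBicd2 livers, but no member passed the test. Of the 10 members, 9 had a negative log2 fold change (shBicd2 minus scramble, computed from log2 of FPKM + 1), where 58.6% of all 10152 tested genes were negative. Gbp11 is among the 9 (-0.23), although its shBicd2 mean was above its scramble mean (84.6 against 73.2 FPKM). The median over the members was -0.51, and over all tested genes -0.06. None of the 10 passed an adjusted p of 0.05 in limma (0.0% of all tested genes did), and none passed with limma's voom on recovered reads. At an unadjusted p below 0.05 there were 3 members lower (Gbp10, Gbp9 and Gbp2; 12.7% of all tested genes) and 0 higher (2.97%). All shBicd2 values lay below all scramble values for 4 members (Gbp2, Gbp4, Gbp9 and Gbp10; 18.7% of all tested genes) and above them for 0 (5.7%). With median-of-ratios size factors or quantile normalization Gbp4 overlapped, which left 3, and on the TPM scale there were 6, with Gbp6 and Gbp7 added. Without sh3 there were also 6, with Gbp5 and Gbp6 added. The share over all tested genes was not worked out for these scalings or without sh3, so these counts cannot be read against it. Without sh1, 6 members were lower without overlap, with Gbp8 and Gbp11 added (27.1% of all tested genes; 8.69% were higher), and 0 passed the test. Limma's array weights, which weighted sh1 at 0.18, sh3 at 0.284 and sh6 at 4.67 and so rest mostly on sh6 for the shBicd2 group, called 5 of the 10 members (Gbp5, Gbp6, Gbp9, Gbp10 and Gbp11), all lower (18.3% of all tested genes were called lower and 8.37% higher).

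The summed level of the 10 genes measured 601, 839.8 and 613 FPKM with the scramble plasmid, against 478 in sh1, 471 in sh3 and 469.8 in sh6. The 3 shBicd2 sums were close to each other and below every scramble sum, although the genes that made them up differed. Without Gbp2, the sum of the other members overlapped between groups, at 322, 404 and 333 FPKM in scramble, against 379 in sh1, 244 in sh3 and 229 in sh6. By cluster, the chromosome 3 sum measured 372, 567 and 372 FPKM with the scramble plasmid, against 177 in sh1, 315 in sh3 and 337 in sh6, without overlap. Of the chromosome 3 genes only Gbp2 did not overlap on its own, while Gbp3, Gbp5 and Gbp7 each did. The chromosome 5 sum measured 229, 273 and 240.4 FPKM with the scramble plasmid, against 301 in sh1, 156 in sh3 and 133 in sh6, with sh1 the highest of all. Within scramble, Sc4 had the highest value for 7 of the 10 members. Gbp2 gave 45.6% to 51.9% of the sum in scramble, 48.2% in sh3 and 51.4% in sh6, but 20.8% in sh1. Gbp11 gave 38.2% of it in sh1, against 6.93% to 10.9% in the other 5 libraries. In whole liver, fewer cells of a type and less RNA per cell cannot be told apart.

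**Figure D2:**
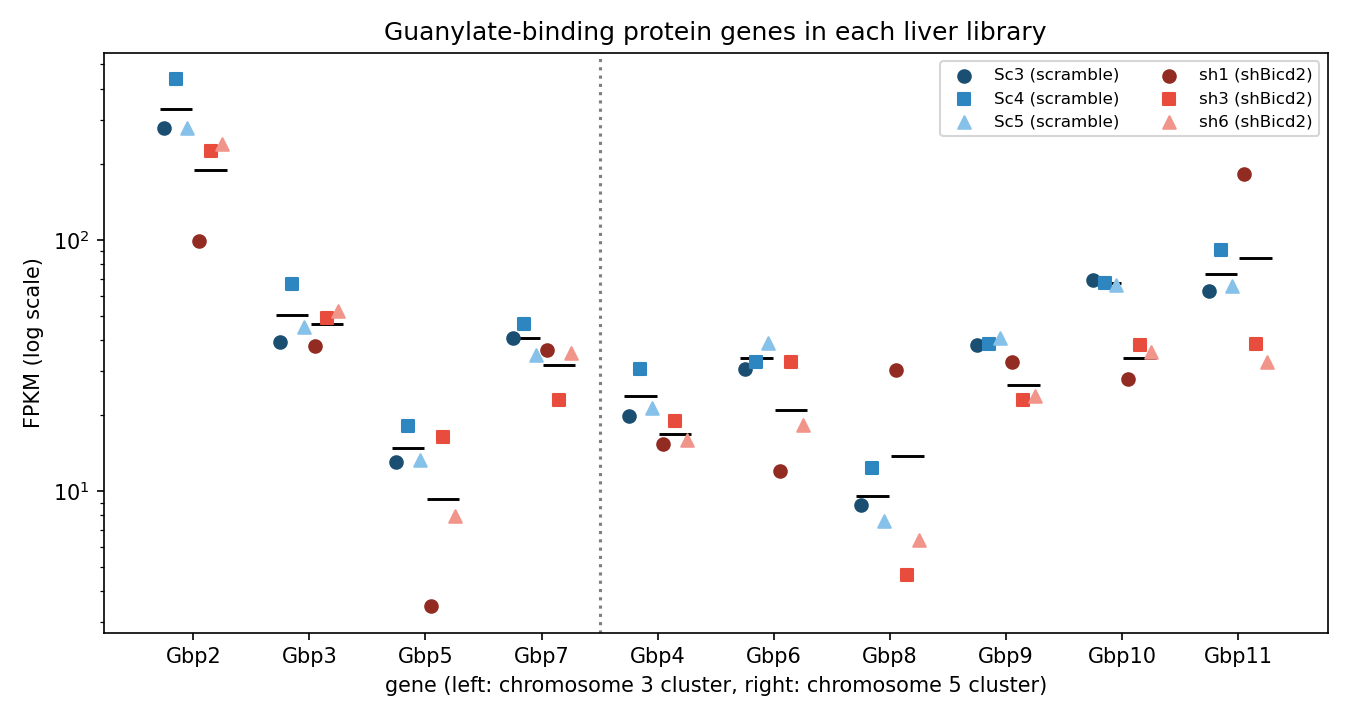
FPKM of the 10 Gbp genes on a log axis, 1 point per library, with a bar at the mean of each group of 3; chromosome 3 genes stand left of the dotted line. In sh1, Gbp2 and Gbp5 lie far below and Gbp8 and Gbp11 far above all other libraries.

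Per length, Gbp2 was the most abundant member in scramble, at 331 ± 90.3 FPKM (SD, n = 3), and its range did not overlap with that of any other member. Gbp11 (73.2 ± 15.7 FPKM), Gbp10 (67.5 ± 1.44), Gbp3 (50.3 ± 14.5), Gbp7 (40.6 ± 5.86), Gbp9 (39.1 ± 1.30), Gbp6 (34.0 ± 4.43) and Gbp4 (23.9 ± 5.78) followed, and in this order each range overlapped with the next. Gbp5 (14.8 ± 2.87 FPKM) lay below Gbp4, and Gbp8 (9.58 ± 2.45 FPKM) below Gbp5, without overlap. In shBicd2 the ranges of neighbours in the order of means overlapped for all 10 members. Gbp2b, the gene once called Gbp1, is outside the list. It measured 0.876, 1.13 and 0.641 FPKM with the scramble plasmid, against 1.71 in sh1, 0.533 in sh3 and 1.01 in sh6, from 25 to 88 reads, and its mean was below the filter.

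Gbp2, a prenylated GBP that coats vacuoles of intracellular parasites, measured 279, 436 and 279 FPKM with the scramble plasmid, against 99.4 in sh1, 227 in sh3 and 241 in sh6. Every shBicd2 value was below every scramble value, and sh1 was at 30.0% of the scramble mean. The log2 fold change was -0.88 ± 0.37 (SE; limma adjusted p = 0.316). Without sh1 it was -0.47 ± 0.22 (adjusted p = 0.335). These values rest on 4567 to 19657 reads.

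Gbp5, a prenylated GBP known for promoting inflammasome assembly, measured 13.0, 18.1 and 13.3 FPKM with the scramble plasmid, against 3.48 in sh1, 16.5 in sh3 and 7.94 in sh6, with sh3 between the scramble values and sh1 at 23.5% of the scramble mean. The log2 fold change was -0.82 ± 0.45 (SE; limma adjusted p = 0.42). It was -0.33 without sh1 and -1.31 without sh3 (adjusted p = 0.0846 without sh3).

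Gbp3 measured 39.2, 66.6 and 44.9 FPKM with the scramble plasmid, against 37.7 in sh1, 48.7 in sh3 and 52.2 in sh6. The groups overlapped, and the log2 fold change, -0.10 ± 0.24 (SE; limma adjusted p = 0.873), became positive without sh1 (0.04) and without Sc4 (0.12). Gbp7, a GBP linked to the delivery of oxidase subunits to phagosomes, measured 40.7, 46.5 and 34.7 FPKM with the scramble plasmid, against 36.5 in sh1, 23.0 in sh3 and 35.5 in sh6. Only sh3 lay below the scramble range, and the log2 fold change was -0.37 ± 0.22 (SE; limma adjusted p = 0.455), -0.48 without sh1 and -0.16 without sh3. Within the chromosome 3 cluster, the 4 genes thus held different orders of the shBicd2 libraries: sh1 was lowest for Gbp2, Gbp5 and Gbp3, and sh3 for Gbp7.

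On chromosome 5, Gbp10 had the smallest p of the family and a narrow spread in scramble. The gene is known from a screen for defence against bacteria. It measured 69.0, 67.6 and 66.1 FPKM with the scramble plasmid, against 28.0 in sh1, 38.2 in sh3 and 35.8 in sh6. The groups did not overlap, sh1 was the lowest library, and the shBicd2 mean was 50.3% of the scramble mean. The log2 fold change was -0.98 ± 0.17 (SE; limma adjusted p = 0.152). It ran from -1.09 to -0.85 over 16 alternatives, with a limma adjusted p of 0.141 without sh1 and 0.0386 without sh3. Without sh3, 2.55% of all tested genes were called lower, 0.296% higher, and Gbp10 was the only Gbp gene called. With Sc3, Sc4, Sc5 or sh6 left out instead, its limma adjusted p was 0.277 to 0.596. Behind the values stand 1978 to 4752 reads, some of which could belong to Gbp6.

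Gbp6, its near-identical copy, measured 30.5, 32.6 and 39.0 FPKM with the scramble plasmid, against 12.0 in sh1, 32.6 in sh3 and 18.3 in sh6, so sh3 reached the scramble range and sh1 and sh6 lay below it. The log2 fold change was -0.78 ± 0.33 (SE; limma adjusted p = 0.324), -0.45 without sh1 and -1.14 without sh3 (adjusted p = 0.0533). The reads of Gbp6 and Gbp10 together, a sum that does not change when a read is moved from one of the pair to the other, came to 7982, 8169 and 7824 with the scramble plasmid, against 3285 in sh1, 5678 in sh3 and 4683 in sh6. Reads counted to Gm43302, or dropped as shared, would be missing from this sum. Over library depth all 3 shBicd2 sums (179.8, 342 and 247 reads per 1 M) lay below the scramble sums (449 to 488).

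Gbp9, a GBP found on parasite vacuoles, measured 38.1, 38.6 and 40.6 FPKM with the scramble plasmid, against 32.6 in sh1, 23.1 in sh3 and 23.9 in sh6. Here sh1 was the highest of the shBicd2 libraries, and the groups did not overlap. The log2 fold change was -0.56 ± 0.18 (SE; limma adjusted p = 0.217), or -0.71 without sh1. Gbp4, reported to restrain IRF7, measured 19.9, 30.5 and 21.3 FPKM with the scramble plasmid, against 15.5 in sh1, 19.0 in sh3 and 16.0 in sh6. Its groups were separated only by the gap between sh3 and Sc3, and the log2 fold change was -0.46 ± 0.20 (SE; limma adjusted p = 0.326), or -0.41 without sh1.

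Gbp8 and Gbp11 had their highest value in sh1. Gbp11 measured 62.5, 91.2 and 65.8 FPKM with the scramble plasmid, against 183 in sh1, 38.4 in sh3 and 32.6 in sh6. Library sh1 was at 2.50 times the scramble mean, while sh3 and sh6 were at 52.5% and 44.5% of it. Gbp8 measured 8.83, 12.3 and 7.59 FPKM with the scramble plasmid, against 30.2 in sh1, 4.63 in sh3 and 6.37 in sh6, so sh1 was at 3.15 times the scramble mean and the others were below the scramble range. The fold changes over all libraries, -0.23 ± 0.61 for Gbp11 and 0.07 ± 0.60 for Gbp8 (SE; limma adjusted p = 0.882 and 0.968), average these opposite values. Without sh1 they were -1.01 ± 0.20 and -0.69 ± 0.22 (adjusted p = 0.143 and 0.204), and without sh3 they were 0.10 and 0.54. The Gbp8 to Gbp11 ratio stayed between 0.115 and 0.196 in all 6 libraries. The coding sequences of the pair are 93.94% identical.

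**Figure D3:**
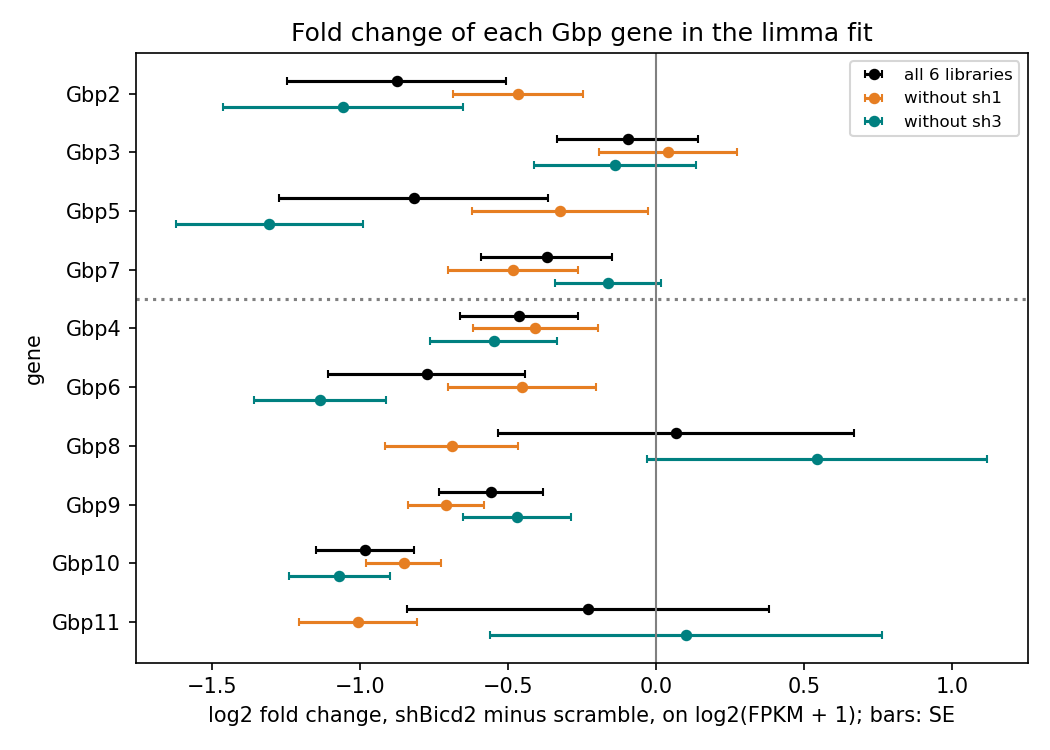
Log2 fold change of each Gbp gene, shBicd2 minus scramble, from log2(FPKM + 1) values, with its SE in the limma fit, for all 6 libraries and without sh1 or sh3. Gbp8 and Gbp11 move from 0.07 and -0.23 to -0.69 and -1.01 without sh1, and Gbp10 stays between -1.07 and -0.85.

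In sh1, members thus stood on both sides of the scramble range. Of the 10, 4 (Gbp2, Gbp5, Gbp6 and Gbp10) were below 50% of the lowest scramble value, as were 7.72% of all tested genes, and 2 (Gbp8 and Gbp11) were above 2 times the highest, as were 5.46%; these bounds were chosen after the values were seen. Ratios within a library do not depend on the scaling between libraries. Of the 45 ratios between 2 members, 3 did not overlap between groups: Gbp2 to Gbp3 was 6.22 to 7.12 in scramble and 2.64 to 4.66 in shBicd2, Gbp3 to Gbp4 was 1.97 to 2.18 and 2.44 to 3.26, and Gbp3 to Gbp10 was 0.568 to 0.986 and 1.28 to 1.46. Each had an exact two-sided permutation p of 0.1, the smallest possible, and an adjusted p of 1.0 over the 45 ratios. The Gbp5 to Gbp8 ratio differed most within the shBicd2 group, at 0.115 in sh1, 3.56 in sh3 and 1.25 in sh6, against 1.47 to 1.75 in scramble.

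The pathway upstream of the Gbp genes was described with a list of 19 genes for the interferon gamma receptor, its signalling and IRF factors, of which 17 were tested. None passed, 13 were negative, 6 were lower (12.7% of all tested genes) and 0 higher (2.97%) at an unadjusted p below 0.05, and the median log2 fold change was -0.56. Groups did not overlap for 7 (Ifngr1, Ifngr2, Jak1, Jak2, Irf1, Irf8 and Pias1), all lower in shBicd2 (18.7% of all tested genes). Ifng, the cytokine gene, measured 1.74, 1.77 and 0.578 FPKM with the scramble plasmid, against 0.338 in sh1, 0.418 in sh3 and 0.0816 in sh6, from 2 to 41 reads and below the filter. Its groups did not overlap (exact two-sided permutation p = 0.1). Ifngr1, the ligand-binding receptor chain, measured 14.6, 12.1 and 17.2 FPKM with the scramble plasmid, against 7.65 in sh1, 8.56 in sh3 and 5.99 in sh6 (log2 fold change -0.90 ± 0.19 SE; limma adjusted p = 0.167). Irf1, which binds response elements of Gbp genes, measured 77.6, 118 and 115 FPKM with the scramble plasmid, against 40.5 in sh1, 63.4 in sh3 and 33.7 in sh6 (limma adjusted p = 0.179). Ifngr2, Jak2, Irf1 and Irf8 passed without sh3, with limma adjusted p of 0.0375, 0.0347, 0.0394 and 0.0446, all lower. In that fit 2.55% of all tested genes were called lower and 0.296% higher. No gene of the list passed without sh1.

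Socs1, a feedback inhibitor of JAK kinases, measured 22.3, 34.2 and 18.4 FPKM with the scramble plasmid, against 6.23 in sh1, 20.6 in sh3 and 13.7 in sh6. The groups overlapped, with sh1 the lowest of all libraries. Nlrc5, the activator of MHC class I genes, was at 6.87 to 11.1 FPKM in scramble and 8.23 to 10.8 FPKM in shBicd2.

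Immunity-related GTPases, which act on the same vacuoles as GBPs, had 12 tested genes out of 16 listed. None passed, 4 were negative, 1 was lower (12.7% of all tested genes) and 0 higher (2.97%) at an unadjusted p below 0.05, and the median was 0.05. Igtp measured 312, 421 and 137 FPKM with the scramble plasmid, against 541 in sh1, 206 in sh3 and 401 in sh6. Iigp1 was at 381 to 679 FPKM in scramble and 422 to 731 FPKM in shBicd2, and Irgm1 at 67.3 to 122 and 89.1 to 97.2 FPKM. All 3 overlapped between groups. The exception in this list was F830016B08Rik, which measured 52.3, 74.1 and 58.0 FPKM with the scramble plasmid, against 21.5 in sh1, 17.1 in sh3 and 20.8 in sh6 (limma adjusted p = 0.142); it is named after its values were seen.

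**Figure D4:**
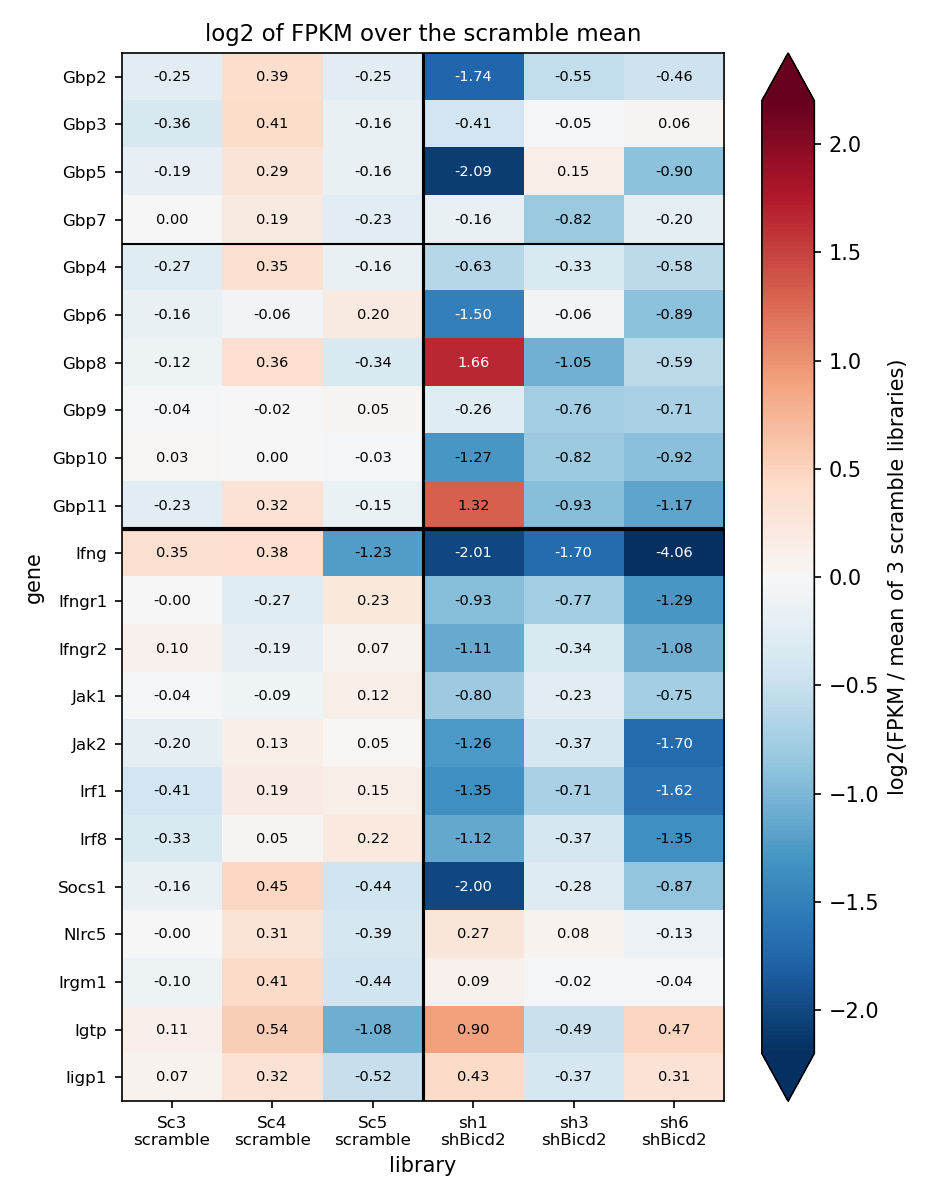
Log2 of FPKM over the mean of the 3 scramble libraries, for the Gbp genes (top, chromosome 3 above chromosome 5) and genes of interferon gamma signalling and the immunity-related GTPases (bottom); columns are libraries, and Ifng in sh6 (-4.06) is beyond the color scale. In sh1, Gbp5 stands at -2.09 and Gbp8 at 1.66.

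Downstream, GBPs expose bacterial products to the caspase-11 (Casp4) and AIM2 inflammasomes, which cleave gasdermin D. Of 17 listed inflammasome and pyroptosis genes 10 were tested and none passed. At an unadjusted p below 0.05, 1 was lower (Il1b; 12.7% of all tested genes) and 1 higher (Il18; 2.97%), and the median log2 fold change was -0.11. Casp4 measured 3.00, 3.53 and 3.46 FPKM with the scramble plasmid, against 1.73 in sh1, 3.49 in sh3 and 2.76 in sh6. Il18, a cytokine released after inflammasome activation, measured 3.22, 3.73 and 4.48 FPKM with the scramble plasmid, against 11.7 in sh1, 6.01 in sh3 and 4.87 in sh6. Il1b, another cytokine matured by caspase-1, measured 5.78, 4.85 and 4.32 FPKM with the scramble plasmid, against 1.03 in sh1, 4.23 in sh3 and 1.83 in sh6. Its groups did not overlap (log2 fold change -0.94 ± 0.33 SE, limma adjusted p = 0.245). Il1b passed without sh3 (limma adjusted p = 0.0364), where 2.55% of all tested genes were called lower and 0.296% higher. Without sh1 the log2 fold change of Il1b was -0.63 (limma adjusted p = 0.289). All shBicd2 values of Il18 were above the scramble values (log2 fold change 0.75 ± 0.29 SE; limma adjusted p = 0.278; 0.42 without sh1). Casp1, the caspase that cleaves IL-18, was at 1.31 to 1.55 and 1.01 to 2.67 FPKM, Gsdmd at 31.2 to 38.9 and 23.6 to 36.7 FPKM, and both overlapped. Aim2 was below the filter, at 0.258 to 0.844 FPKM from 15 to 54 reads.

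The genes most like the family were sought among 9705 genes by Pearson's r over the 6 libraries with the mean profile of the members, each centred and scaled to an SD of 1. As the best of many over 6 libraries, such values are a description only. The 5 highest were Tinagl1, Xlr3a, Pgd, Noc2l and Prps1, with r from 0.97 to 0.99. Tinagl1, a matrix protein gene, measured 5.47, 6.88 and 5.62 FPKM with the scramble plasmid, against 3.88 in sh1, 4.06 in sh3 and 3.87 in sh6. For Gbp10 alone the 5 highest were Spidr, Enpp4, Snx8, Scaf11 and Slc39a6, with r of 0.996 to 0.998. Enpp4 measured 9.85, 9.18 and 8.73 FPKM with the scramble plasmid, against 3.63 in sh1, 4.96 in sh3 and 4.91 in sh6.

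Markers of liver and immune cell types were read beside these values. Of 77 markers in 9 lists, 72 were found, all above 0, and Trac, Cd79a, Cd79b, Krt19 and Cftr were not analysed here. The tissue label held: Alb, the albumin gene of hepatocytes, was at 15373 to 26213 FPKM. T and NK cell markers were low in all libraries, with a sum over 11 genes of 3.42 to 5.65 FPKM in scramble and 3.65 to 7.03 FPKM in shBicd2. The sum of 8 monocyte and macrophage markers was 194 to 270 FPKM in scramble and 119 to 204 FPKM in shBicd2, with 3 of 8 tested genes lower without overlap (Adgre1, Cd68 and Itgam), where 18.7% of all tested genes were lower and 5.7% higher without overlap. That of 7 Kupffer cell markers was 134 to 179 and 88.7 to 145 FPKM (0 of 6 tested without overlap). That of 9 neutrophil markers was 385 to 531 and 153 to 462 FPKM (5 of 9 lower without overlap: Ly6g, Mmp8, Mmp9, Cxcr2 and Csf3r). A negative log2 fold change was found for 7 of 8 tested monocyte and macrophage markers, with a median of -0.46. It was found for 6 of 6 tested Kupffer cell markers (median -0.40) and 9 of 9 neutrophil markers (median -0.73). Of all tested genes, 58.6% were negative. For 10 sinusoidal endothelial markers the sum was 31.9 to 40.8 and 25.0 to 38.4 FPKM (3 of 9 tested lower: Lyve1, Pecam1 and Cdh5). These 3 were the only tested endothelial markers with a negative log2 fold change, and the median of the list was 0.05. For 9 hepatic stellate cell markers the sum was 42.5 to 54.8 and 18.5 to 41.4 FPKM (2 of 6 tested lower: Dcn and Ecm1). All 6 had a negative log2 fold change, and the median was -0.40. The 10 hepatocyte markers summed to 27062 to 32858 and 32375 to 40884 FPKM, with 3 of 10 higher (Apoa1, Ttr and Serpina1c). Alb gave most of this sum, 5 of the 10 had a negative log2 fold change, and the median was 0.09. The 4 B cell markers found summed to 3.40 to 9.16 and 3.85 to 10.3 FPKM. In sh1, where Gbp8 and Gbp11 were high, the sum of 4 cholangiocyte markers was 135 FPKM, against 30.0 to 67.2 FPKM in the other libraries, but Spp1 alone gave 132 FPKM of it. Sox9 (3.11 FPKM) and Epcam (0.224 FPKM) had their lowest value of all libraries in sh1, and Sox9 was lower in shBicd2 without overlap. The part of these cell types in the Gbp values was not tested.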

How the data were processed

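Bulk RNA-seq of mouse liver was deposited as 1 table of FPKM values that the authors made per gene and library, using mm10, HISAT2 2.0.5 and featureCounts 1.5.0-p3 according to the submitters' processing notes. For the annotation, read length, strand setting and rule for shared reads, what was used is not given in the sources. Columns were assigned to groups by their names, whose numbers do not match the labels' replicate numbers, and 0 columns belonged to other samples. The members and gene lists were chosen with earlier results of these data known.

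FPKM values were compared with limma 3.58.1 (trend, R 4.3.3) on log2(FPKM + 1) for those 10152 of 14669 genes whose mean reached 1 FPKM, with Benjamini-Hochberg adjustment over all of them and a threshold of 0.05. The fit was tested on simulated data with an equal spread for all genes, no outlying library and shifts larger than those of the Gbp genes. That test therefore does not show how the fit handles data with a library like sh1. The pseudocount understates changes of low genes. Single values and ratios were compared by exact two-sided permutation tests (scipy 1.17.1). Library depths (16.03 M to 18.93 M reads) were recovered from the steps of the FPKM values and GENCODE M21 exon lengths. Reads came out whole (within 0.02) in all 6 libraries for 14068 of 14339 genes with a length, and limma's voom on them tested 9805 genes and called 0. Gene positions are of GRCm38. Promoters are from RefSeq (GRCm38.p6), and promoter motifs and shared windows were exact matches of letters. Named genes were every member, Gbp2b, Bicd2, a fixed panel of pathway genes, and the 5 genes most like the family and most like Gbp10. Other tested list members are named where their groups did not overlap, and Alb, Spp1 and Epcam after their values were seen. One gene of the panel is not reported here. Alternatives were other pseudocounts, filters, scalings and weights, recovered reads, and each library left out in turn.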

Additional observations from a re-analysis of the deposited data

How the results depend on the processing

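With all 6 libraries at equal weight, the number of Gbp genes past the threshold was 0 under every pseudocount, filter and scaling tried. Limma's array weights called 5 of 10 Gbp genes, 17 of 72 tested pathway list members, all lower, and 2709 of 10152 genes in all. Of all tested genes, 18.3% were called lower and 8.37% higher with these weights. Leaving out each library in turn gave 0 to 1 Gbp genes, 0 to 6 list members and 0 to 289 genes in all, the highest each time without sh3. There, 2.55% of all tested genes were called lower and 0.296% higher. Gbp3 reversed to 0.17 with array weights, 0.12 without Sc4 and 0.04 without sh1. Gbp8 reversed to -0.041 (TPM scale), -0.42 with array weights, -0.07 without Sc5 and -0.69 without sh1, and Gbp11 to 0.10 without sh3 and 0.22 without sh6. With each library left out in turn, Gbp3 ran from -0.25 to 0.12, Gbp8 from -0.69 to 0.54 and Gbp11 from -1.01 to 0.22. The cause was not tested. The other 7 Gbp genes stayed negative under all 16 alternatives, Gbp2 between -1.10 and -0.40, Gbp5 between -1.31 and -0.33, and Gbp9 between -0.71 and -0.47. Bicd2 was between -0.27 and -0.09 with 1 library left out. Summing FPKM values within a cluster gave -0.69 for chromosome 3 and -0.42 for chromosome 5, against medians of -0.59 and -0.51. No paired analysis was possible because the column numbers of the table (3, 4 and 5 for scramble; 1, 3 and 6 for shBicd2) are not the replicate numbers of the labels (1 to 3 in each group). Depth limits genes with under 100 reads per library, among them Ifng, Aim2, Gbp2b, Casp1 (29 to 73 reads) and Atg10 (20 to 48 reads).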

Other observations

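Gene groups on which GBPs depend for reaching membranes were read in the same fit. Of the 14 tested genes of ubiquitin-like ATG8 conjugation, which directs GBPs to vacuoles, none passed the limma test, 2 were lower (12.7% of all tested genes) and 0 higher (2.97%) at an unadjusted p below 0.05, and the median log2 fold change was -0.17. Gabarapl1, an ATG8 homologue, measured 78.1, 76.3 and 82.1 FPKM with the scramble plasmid, against 50.4 in sh1, 69.5 in sh3 and 56.0 in sh6, without overlap. Map1lc3a, Gabarapl2 and Atg10 were also lower without overlap (4 of 14 in all; 18.7% of all tested genes), and Atg3 was higher without overlap (1 of 14; 5.7%).

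For prenylation, which attaches the lipid that anchors Gbp2 and Gbp5, and for the processing steps after it, 6 genes were listed. None passed, 1 was lower at an unadjusted limma p below 0.05 (Icmt, against 12.7% of all tested genes), and the median was -0.16. Fnta was at 6.96 to 9.24 FPKM in scramble and 6.53 to 8.63 FPKM in shBicd2, Fntb at 0.923 to 1.64 and 1.03 to 1.70 FPKM, and Pggt1b at 2.46 to 2.71 and 2.33 to 2.70 FPKM. All 3 overlapped.

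Among 13 tested relatives of the dynamin superfamily none passed, 2 were lower without overlap (Mfn1 and Ehd1), a share near the 18.7% of all tested genes, and the median was -0.09. Atl2, an atlastin that shapes the endoplasmic reticulum, measured 17.6, 14.3 and 16.1 FPKM with the scramble plasmid, against 7.10 in sh1, 11.1 in sh3 and 17.1 in sh6. Atl3 was at 5.85 to 7.30 and 4.98 to 8.57 FPKM. Both overlapped between groups.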
